A study of Mus musculus with 18 samples.

Results

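The 9 genes described here act in one circuit of macrophage lipid handling: 2 fatty acid binding proteins (Fabp4 and Fabp5), the oxysterol receptor LXR alpha (Nr1h3), 3 apolipoproteins (Apoe, Apoc1 and Apoc2), 2 sterol transporters (Abca1 and Abcg1) and lipoprotein lipase (Lpl). They were taken by gene symbol from the 32789 genes of the count table, and the choice was made with earlier results of these data known. Counts of called genes among them are therefore not independent of these data. All 9 passed the filter on low counts that 12900 genes passed. RNA-seq was done on alveolar macrophages, the resident phagocytes of the air spaces, taken from mice by bronchoalveolar lavage and positive selection on CD11c beads. The study set cells lacking Vhl together with Hif1a, with Hif2a (the gene Epas1), or with both, against floxed controls of the same cross. Each of the 6 groups had 3 libraries.

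The labels give the genotypes as CD11c-Cre_Vhl-Hif1-KO, CD11c-Cre_Vhl-Hif2-KO and CD11c-Cre_Vhl-Hif1-Hif2-KO, called here the Vhl/Hif1a, the Vhl/Hif2a and the triple knockout. Their controls are labelled Control Vhl-Hif1a_flox-flox, Control Vhl-Hif2a_flox-flox and Control Vhl-Hif1-Hif2a_flox-flox, and whether these mice carry Cre is not stated. All animals therefore share floxed Vhl, and the crosses differ in which Hif alleles are floxed. The CD11c promoter that drives Cre is active in alveolar macrophages and also in dendritic cells. Age, sex, batch and whether the 3 libraries of a group came from separate animals are not given, so p-values measure only the spread between these libraries.

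As background, VHL is the ubiquitin ligase subunit that marks the alpha subunits of hypoxia-inducible factors for destruction, so its loss leaves whichever alpha subunit is still encoded without this control. Fatty acid binding proteins carry fatty acids through the cytosol. LXR alpha senses oxysterols and, paired with RXR, switches on genes that export cholesterol, among them Abca1, Abcg1, Apoe, Apoc1 and Apoc2. Alveolar macrophages clear surfactant lipid and depend on the receptor PPAR gamma and on ABCG1-mediated export to do so.

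Library totals ran from 19230000 to 34015000 counts, and 1 CPM (a count per 1000000, scaled by TMM factors) stood for 19.57 to 33.45 counts. Vhl averaged 2.88, 2.25 and 2.20 CPM in the Vhl/Hif1a, Vhl/Hif2a and triple knockouts and 16.9, 18.7 and 12.9 CPM in their controls. Control libraries stood apart in places: the HIF target Egln3 was highest of its group in Vhl/Hif1a control 3 (32.5 CPM) and in Vhl/Hif2a control 1 (11.5 CPM), and triple control 2 lay farthest from the others of its group. Where leaving out these 3 controls together changed a call on one of the 9 genes, the value without them stands beside it. The 12 alveolar macrophage markers were all detected above 1 CPM on average in every group. Their summed level was higher in the knockout than in the control libraries of each cross (36110 to 43340 against 31720 to 32930 CPM in the Vhl/Hif1a cross, 37030 to 39980 against 28550 to 32580 in the Vhl/Hif2a cross, 36610 to 37170 against 25140 to 33310 in the triple cross). Most of that sum was Chil3, a secreted chitinase-like protein, at a mean of 20756, 18621 and 19412 CPM in the Vhl/Hif1a, Vhl/Hif2a and triple controls and 28383, 25041 and 23823 CPM in the knockouts. By the edgeR test 0 of the 12 were higher and 1 lower in the Vhl/Hif1a knockout, 4 higher and 2 lower in the Vhl/Hif2a knockout and 1 higher and 0 lower in the triple knockout, with list medians of log2 -0.02, 0.11 and 0.16. Over all tested genes 3.64%, 14.7% and 0.0388% were called in either direction, so 1 of the 5 genes called in the triple knockout was on this list. The 10 lymphocyte markers summed to less than 1 CPM in every library.

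Fabp4, Nr1h3, Apoe and Apoc1 rose in the Vhl/Hif1a knockout and again in the Vhl/Hif2a knockout, and none of the 9 genes passed the test in the triple knockout. Fabp5, Apoc2, Abca1, Abcg1 and Lpl passed in none of the 3 comparisons. In edgeR's quasi-likelihood test, 4 of 9 genes were higher and 0 lower in the Vhl/Hif1a knockout, where 2.22% of all tested genes were called higher (3.64% in either direction). In the Vhl/Hif2a knockout the count was also 4 higher and 0 lower, against 7.68% called higher (14.7% in either direction). In the triple knockout 0 of 9 were called by edgeR and 0 by DESeq2, and 0 had an unadjusted p under 0.05, which 11.5% of all genes had. Only 0.0388% of all genes were called there. The pattern of the 4 genes, higher in both double knockouts and not called in the triple knockout, was shared by 200 genes, 1.55% of those tested. The median log2 fold change of the 9 genes was 0.72, 0.23 and 0.19 in the 3 comparisons, and the median over all tested genes was -0.00066, 0.0032 and -0.010. Knockout and control libraries did not overlap for 5 of the 9 genes in the Vhl/Hif1a cross (23.8% of all genes), for 4 in the Vhl/Hif2a cross (35.1%) and for 2 in the triple cross (15.3%). In bulk RNA a change in the share of cells that express a gene and a change in RNA per cell cannot be told apart.

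**Figure D1:**
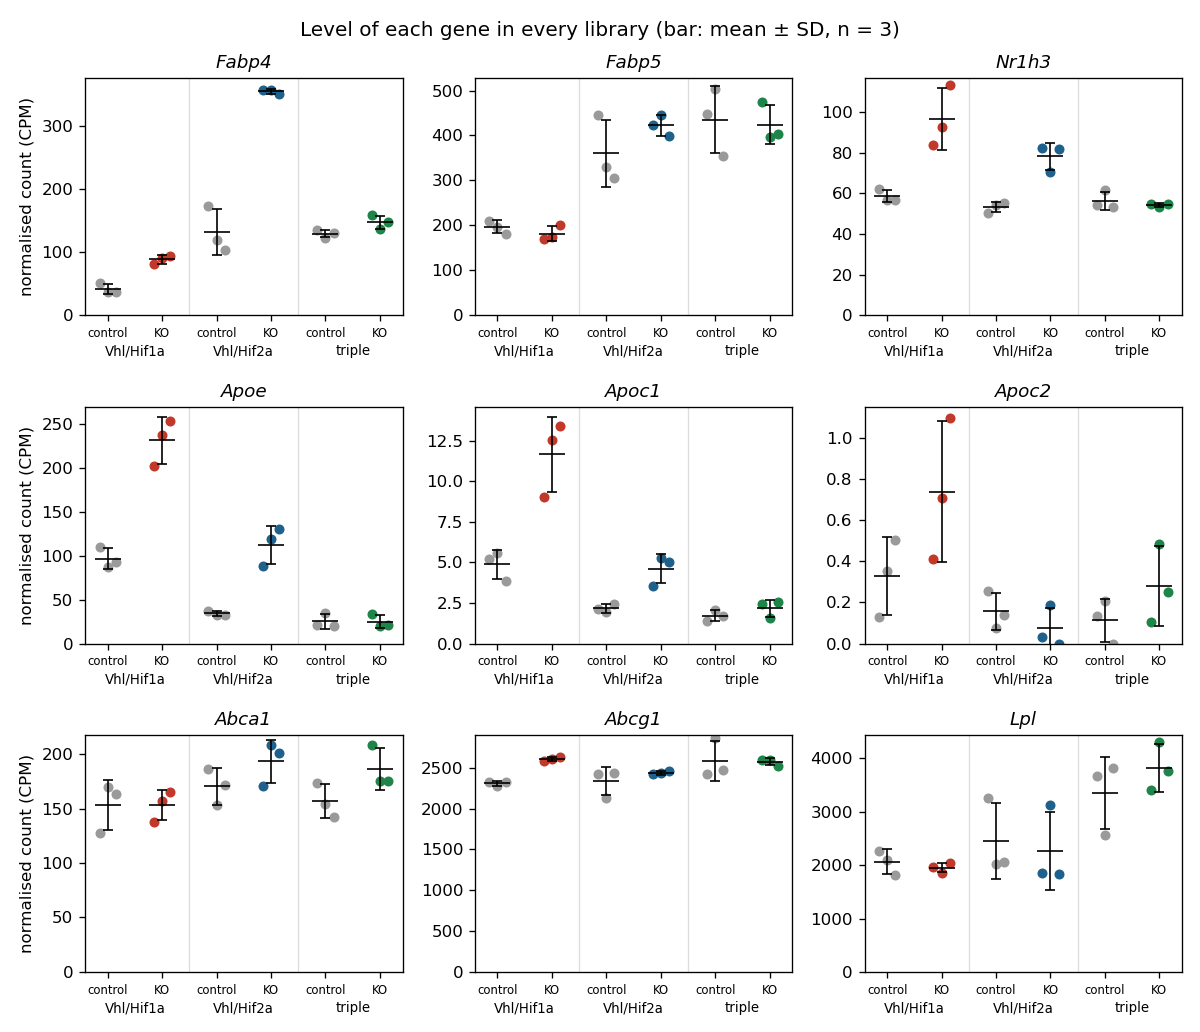
Normalised count (CPM, linear axis from 0) of each of the 9 genes in every library, by cross, with the mean and SD of 3 libraries per group; grey points are controls and coloured points knockouts (KO). Fabp4, Nr1h3, Apoe and Apoc1 separate from their controls in both double knockout crosses, while Apoe ranges from 20.2 to 35.2 CPM over all 6 libraries of the triple cross.

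Promoter windows are printed for 2 genes that rose, Apoe and Nr1h3, and for Abca1, a well-known LXR target whose level did not pass. Each lies ahead of the outermost listed RefSeq start, where 3 starts are listed for Apoe and 2 for Nr1h3. The Nr1h3 window falls inside the annotated gene (chr2:91184061-91202834), so it does not lie ahead of the gene's annotated 5′ end. RefSeq windows on GRCm38.p6 were matched for 4 of the 9 genes. The bases printed run 5′ to 3′ on the gene's strand, from chr7:19699189-19699438 (Apoe), chr2:91195152-91195366 (Nr1h3, leaving out the 35 bases next to the start that an annotated exon covers) and chr4:53159896-53160145 (Abca1), all minus strand. Capitals mark motif matches.
Apoe: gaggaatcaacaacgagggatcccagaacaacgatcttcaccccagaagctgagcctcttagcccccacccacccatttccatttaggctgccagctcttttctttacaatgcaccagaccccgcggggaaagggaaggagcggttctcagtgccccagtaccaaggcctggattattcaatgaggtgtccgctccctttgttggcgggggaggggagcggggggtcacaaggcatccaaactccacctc
Nr1h3: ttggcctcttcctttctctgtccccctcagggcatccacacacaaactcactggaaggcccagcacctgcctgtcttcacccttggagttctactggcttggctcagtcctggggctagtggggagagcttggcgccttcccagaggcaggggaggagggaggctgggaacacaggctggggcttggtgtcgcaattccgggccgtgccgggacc
Abca1: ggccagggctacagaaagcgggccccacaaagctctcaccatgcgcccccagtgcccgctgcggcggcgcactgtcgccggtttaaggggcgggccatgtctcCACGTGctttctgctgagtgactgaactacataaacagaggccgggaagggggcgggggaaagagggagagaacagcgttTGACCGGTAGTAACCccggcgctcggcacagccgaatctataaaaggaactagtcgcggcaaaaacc

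Both strands were searched for the core of the hypoxia response element as ACGTG (in 16.6% of 32851 promoter windows of 250 bases) and GCGTG (28.2%), for the E-box CACGTG, which contains ACGTG (6.02%), and for 3 nuclear receptor repeats. These were AGGTCA repeated after 4 bases (0.0152%), the spacing LXR and RXR bind, GGTTAC followed after 4 bases by GGTCA (0.0365%), the form of that element known from Abca1, and AGGTCA repeated after 1 base (0.0335%), the spacing PPAR and RXR bind. The Abca1 window held CACGTG at bases 147 to 142 before the start and the GGTTAC form on the opposite strand at bases 67 to 53. The Apoc2 window, matched but not printed, held ACGTG on the opposite strand at bases 200 to 196 before the start, within an annotated exon. Neither the Apoe nor the Nr1h3 window held any of the 6 in these letters. A match is a description of letters, and a window without one says nothing of binding elsewhere.

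Compared per kilobase of annotated exon, a scale needed to set different genes side by side, Abcg1 had the highest mean level (338.8 CPM per kb over 18 libraries), followed by Lpl (253.2), Fabp5 (94.4), Apoe (41.0), Fabp4 (33.2), Nr1h3 (26.3), Abca1 (16.3), Apoc1 (6.10) and Apoc2 (0.346). The genes with the highest levels were thus among those that did not pass the test. Exon length was the union over all transcripts, which for Fabp4 covers the whole 4489-base gene, so the order is approximate.

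Fabp4 encodes the adipocyte and macrophage fatty acid binding protein (chr3:10204088-10208576, minus strand, GRCm38). It measured 50.7, 36.7 and 36.4 CPM in the Vhl/Hif1a controls and 80.8, 90.3 and 93.7 CPM in the knockouts. All 3 knockout libraries lay above all 3 controls, a 2.14-fold difference (log2 1.10 ± 0.15 SE, edgeR adjusted p = 0.000255). In the Vhl/Hif2a cross, controls measured 172.7, 119.6 and 103.4 CPM and knockouts 357.1, 357.3 and 350.5 CPM. These knockouts were the highest of all 18 libraries and varied least, with a coefficient of variation of 1.09% against 27.5% in their controls. The fold was 2.69 (log2 1.43 ± 0.15 SE, adjusted p = 4.66e-06). In the triple cross, controls measured 134.6, 122.8 and 130.0 CPM and knockouts 158.2, 137.3 and 146.9 CPM. The groups just failed to overlap, and the difference did not pass (log2 0.19, 95% interval -0.13 to 0.51, adjusted p = 0.513). Over the groups, Vhl/Hif1a controls were lowest and Vhl/Hif1a knockouts next, below every library of the other crosses, where triple and Vhl/Hif2a control levels overlapped.

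Fabp5, the epidermal fatty acid binding protein, lies on the same chromosome (chr3:10012548-10016607, plus strand) and did not pass in any cross. Levels in the Vhl/Hif1a cross were 210.4, 197.1 and 181.5 CPM in controls and 168.9, 174.6 and 201.3 CPM in knockouts. In the Vhl/Hif2a cross they were 446.0, 330.0 and 304.7 CPM in controls and 423.9, 445.8 and 399.3 CPM in knockouts. In the triple cross they were 447.2, 502.8 and 354.6 CPM in controls and 473.5, 396.6 and 403.1 CPM in knockouts. Knockouts and controls overlapped in every cross, and log2 fold changes were -0.11 (95% interval -0.41 to 0.18, adjusted p = 0.836), 0.23 (-0.06 to 0.53, 0.323) and -0.04 (-0.33 to 0.26, 0.91). Without the 3 controls named above, the Vhl/Hif2a difference passed (log2 0.41, adjusted p = 0.0153). All 6 libraries of the Vhl/Hif1a cross lay below all 12 of the other crosses.

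The ratio of Fabp4 to Fabp5 per kb therefore moved within each double cross. It ran from 0.148 to 0.192 in the Vhl/Hif1a controls and from 0.370 to 0.411 in the knockouts. The same ratio was 0.270 to 0.308 in Vhl/Hif2a controls and 0.637 to 0.698 in knockouts. In the triple cross the ranges overlapped, at 0.194 to 0.292 in controls and 0.266 to 0.290 in knockouts. The other genes of the fatty acid binding protein cluster between and beside this pair (Pmp2, Fabp9 and Fabp12) averaged 0.0162, 0.0118 and 0.0203 CPM and were not tested.

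Nr1h3 encodes LXR alpha (chr2:91184061-91202834, minus strand). Vhl/Hif1a controls measured 62.0, 56.7 and 57.0 CPM and knockouts 83.7, 92.7 and 113.5 CPM. All knockouts were above all controls, 1.65-fold (log2 0.72 ± 0.10 SE, adjusted p = 0.000245). Vhl/Hif2a controls measured 50.3, 54.5 and 55.3 CPM and knockouts 82.5, 70.4 and 81.9 CPM. These groups did not overlap either, at 1.47-fold (log2 0.55 ± 0.10 SE, adjusted p = 0.00111). The triple cross gave 54.5, 61.5 and 53.1 CPM in controls and 55.0, 53.3 and 54.8 CPM in knockouts (log2 -0.05, 95% interval -0.27 to 0.16, adjusted p = 0.798). Levels in the 3 control groups and the triple knockout all fell between 50.3 and 62.0 CPM, and Nr1h3 passed in none of the comparisons between control groups given further on. It shares 34 exon bases with Gm13783 on the same strand.

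Apoe encodes apolipoprotein E, which carries cholesterol out of macrophages (chr7:19696109-19699188, minus strand). Vhl/Hif1a controls measured 110.1, 87.2 and 92.6 CPM and knockouts 202.5, 237.7 and 254.2 CPM. The groups did not overlap, and knockouts were 2.39-fold higher (log2 1.26 ± 0.21 SE, adjusted p = 0.00144). Vhl/Hif2a controls measured 37.4, 33.0 and 32.5 CPM and knockouts 88.7, 118.7 and 130.7 CPM. This 3.29-fold rise (log2 1.72 ± 0.22 SE, adjusted p = 3e-05) was the largest fold among the called genes here. In the triple cross, controls measured 20.9, 35.2 and 20.3 CPM and knockouts 33.6, 20.2 and 20.7 CPM. Triple control 2 and triple knockout 1 stood above the other two libraries of their groups, and the groups overlapped (log2 -0.03, 95% interval -0.49 to 0.43, adjusted p = 0.948; 0.27 without triple control 2). Vhl/Hif2a knockouts overlapped the Vhl/Hif1a controls in level, and the Vhl/Hif1a knockouts stood above all other libraries.

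Apoc1 encodes a small apolipoprotein that modulates lipoprotein uptake and lies beside Apoe (chr7:19689481-19692660, minus strand). Vhl/Hif1a controls measured 5.19, 5.60 and 3.86 CPM and knockouts 9.05, 12.5 and 13.4 CPM. Every knockout exceeded every control, 2.39-fold (log2 1.26 ± 0.22 SE, adjusted p = 0.00198). Vhl/Hif2a controls measured 2.15, 1.93 and 2.46 CPM and knockouts 3.57, 5.25 and 5.02 CPM. Those groups were also apart, 2.12-fold (log2 1.08 ± 0.23 SE, adjusted p = 0.00419). Triple controls measured 1.38, 2.08 and 1.68 CPM and knockouts 2.44, 1.59 and 2.53 CPM, with overlap (log2 0.35, 95% interval -0.16 to 0.87, adjusted p = 0.472). As for Apoe, Vhl/Hif1a knockouts stood above all other libraries, and Vhl/Hif2a knockouts overlapped the Vhl/Hif1a controls in level. The Apoe to Apoc1 ratio per kb overlapped between knockouts and controls in the Vhl/Hif1a cross (6.60 to 7.78 against 5.42 to 8.36) and in the triple cross (2.85 to 4.79 against 4.20 to 5.90), and it was higher in the Vhl/Hif2a knockouts (7.87 to 9.06 against 4.59 to 6.07).

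Apoc2, the cofactor that activates lipoprotein lipase, was near the detection limit (chr7:19671579-19677941, minus strand). Its counts were 3, 8 and 13 in Vhl/Hif1a controls and 11, 19 and 28 in knockouts, 5, 2 and 3 in Vhl/Hif2a controls and 1, 6 and 0 in knockouts, and 4, 5 and 0 in triple controls and 3, 15 and 7 in knockouts. The groups overlapped in each cross, and no difference was detectable at this depth (adjusted p = 0.588, 0.617 and 0.473). Of its 813 exon bases, 646 are shared with Gm44805 on the same strand, so reads could be split between them.

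The neighbours of the Apoe cluster did not pass the test. Within 100 kb of its 3 genes, 8 other genes had a mean of at least 1 CPM, and 0 of the 8 were called in any of the 3 comparisons. The shares of all genes called there were 3.64%, 14.7% and 0.0388%, so a count of 0 among 8 genes shows nothing particular to these neighbours. Tomm40, which encodes a mitochondrial import pore and starts 16.2 kb from Apoe, gave log2 fold changes of 0.07, 0.35 and -0.49 (adjusted p = 0.934, 0.229 and 0.429). Clptm1, 34.2 kb away on the other side, gave 0.03, 0.01 and -0.29 (adjusted p = 0.949, 0.96 and 0.429). Bcam, a laminin receptor gene 71.8 kb away, gave 0.91, 1.04 and -0.73 (adjusted p = 0.287, 0.0738 and 0.429). Apoc4, between Apoc1 and Apoc2, averaged 0.0190 CPM and was not tested.

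**Figure D2:**
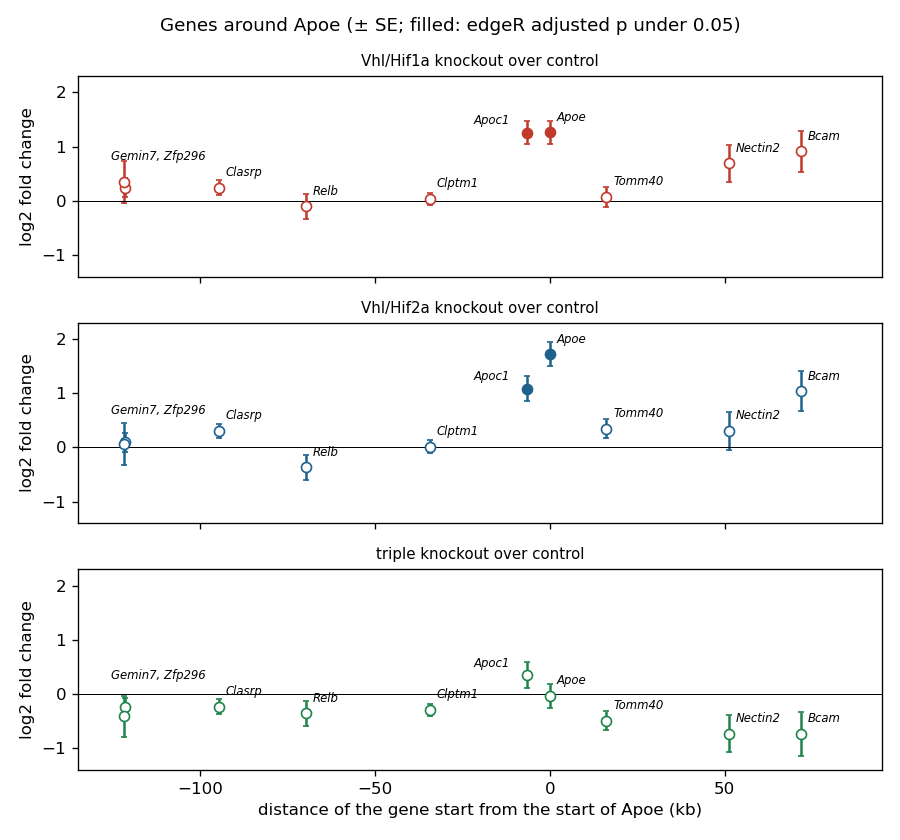
Log2 fold change (± SE) of Apoe, Apoc1 and the tested neighbours with a mean of at least 1 CPM, by distance in kb of each gene start from that of Apoe, in the 3 knockouts over their controls; filled points have an edgeR adjusted p under 0.05. Apoe and Apoc1 are filled in the Vhl/Hif1a panel (both 1.26) and the Vhl/Hif2a panel (1.72 and 1.08), and no point is filled in the triple panel.

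Abca1 encodes the transporter that loads cholesterol onto lipid-poor apolipoproteins (chr4:53030787-53159895, minus strand). Vhl/Hif1a controls measured 127.4, 169.6 and 163.6 CPM and knockouts 138.2, 157.4 and 165.2 CPM. Vhl/Hif2a controls measured 186.4, 153.1 and 172.0 CPM and knockouts 171.3, 208.8 and 200.8 CPM. Both crosses overlapped, with log2 0.00 (95% interval -0.26 to 0.26, adjusted p = 1) and 0.18 (-0.07 to 0.44, 0.384). In the triple cross, controls measured 173.4, 154.0 and 142.6 CPM and knockouts 209.0, 175.5 and 175.2 CPM. There the groups did not overlap, and the difference did not pass (log2 0.25, 95% interval -0.01 to 0.51, adjusted p = 0.429).

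Abcg1 encodes the transporter that passes cholesterol to mature lipoproteins (chr17:31057675-31117988, plus strand). Vhl/Hif1a controls measured 2324, 2277 and 2323 CPM and knockouts 2582, 2601 and 2632 CPM. The groups were apart by 1.13-fold, which did not pass over all genes (log2 0.17 ± 0.07 SE, unadjusted p = 0.0254, adjusted p = 0.261 in edgeR). Vhl/Hif2a controls measured 2422, 2133 and 2438 CPM and knockouts 2419, 2431 and 2460 CPM, and triple controls 2421, 2863 and 2470 CPM and knockouts 2594, 2599 and 2520 CPM. Both pairs overlapped (log2 0.06, adjusted p = 0.641, and -0.01, adjusted p = 0.966). Its level stayed between 2133 and 2863 CPM in all 18 libraries.

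Lpl encodes the lipase that frees fatty acids from triglyceride-rich particles (chr8:68880491-68907448, plus strand). Vhl/Hif1a controls measured 2275, 2099 and 1822 CPM and knockouts 1970, 1859 and 2038 CPM. Vhl/Hif2a controls measured 3265, 2019 and 2066 CPM and knockouts 1846, 3119 and 1842 CPM, with 1 library of each group well above the other two. Triple controls measured 3671, 2572 and 3813 CPM and knockouts 3408, 4300 and 3763 CPM. Knockouts and controls overlapped in all 3 crosses, with log2 fold changes of -0.08, -0.11 and 0.19 (adjusted p = 0.939, 0.81 and 0.634). The spread within groups reached a coefficient of variation of 32.5% in the Vhl/Hif2a knockouts, and the 95% interval there was -0.55 to 0.33.

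**Figure D3:**
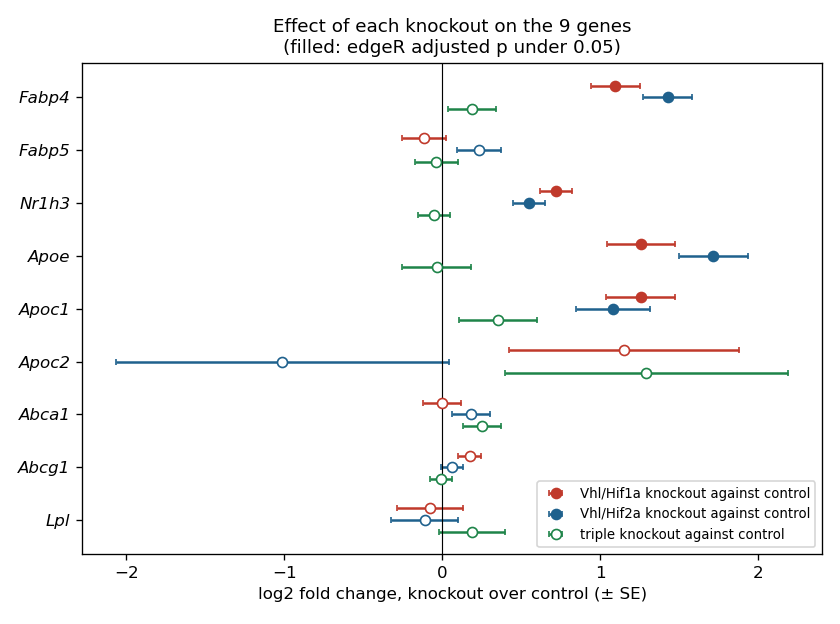
Log2 fold change (± SE) of each gene in the 3 knockouts over their controls, with filled points for an edgeR adjusted p under 0.05. The 8 filled points belong to Fabp4, Nr1h3, Apoe and Apoc1 in the Vhl/Hif1a and Vhl/Hif2a knockouts and lie between 0.55 and 1.72.

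The size of the rises was compared between crosses by testing the difference of the knockout effects. Between the Vhl/Hif1a and the Vhl/Hif2a effect, 0 of 9 genes were called by edgeR and 0 by DESeq2, with 0 at an unadjusted p under 0.05, where 2.44% of all genes were called and 10.5% had such an unadjusted p. The 95% intervals of the log2 difference were -0.79 to 0.12 for Fabp4, -0.13 to 0.47 for Nr1h3, -1.09 to 0.18 for Apoe and -0.51 to 0.85 for Apoc1, which does not show the effects to be equal. Without the 3 controls named above, the Fabp4 difference passed (-0.66, adjusted p = 0.0334).

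Against the triple knockout effect, the Vhl/Hif2a effect was larger for 3 of 9 genes (4.91% of all genes were called larger, 7.99% in either direction). The log2 differences were 1.24 ± 0.21 SE for Fabp4 (adjusted p = 0.00132), 0.60 ± 0.14 for Nr1h3 (0.0143) and 1.75 ± 0.31 for Apoe (0.00149). These 3 calls held in all 12 fits that left out 1 library. Nr1h3 lost its call without the 3 controls named above (adjusted p = 0.0593). Apoc1 did not pass (0.73 ± 0.34, adjusted p = 0.195).

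The Vhl/Hif1a effect was larger than the triple effect for the same 3 genes (1.5% of all genes were called larger, 2.04% in either direction), namely Fabp4 (0.91 ± 0.22 SE, adjusted p = 0.0378), Nr1h3 (0.78 ± 0.14, 0.00695) and Apoe (1.29 ± 0.30, 0.0352). Nr1h3 passed in all 12 fits that left out 1 library. Fabp4 passed in 4 of the 12 and Apoe in 5, with adjusted p of up to 0.111 and 0.109. The Fabp4 call ended without any 1 of Vhl/Hif1a controls 2 and 3, Vhl/Hif1a knockouts 2 and 3, triple control 1 or the triple knockouts, and the Apoe call without any 1 of Vhl/Hif1a controls 2 and 3, Vhl/Hif1a knockouts 2 and 3, triple control 2 or triple knockouts 2 and 3. The Apoe call also ended without the 3 controls named above (0.96, adjusted p = 0.122). Apoc1 did not pass (0.90 ± 0.33, adjusted p = 0.207).

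Control levels differed between crosses before any knockout was considered. Against Vhl/Hif2a controls, Vhl/Hif1a controls had lower Fabp4 (log2 -1.68 ± 0.16 SE, adjusted p = 1.66e-05) and Fabp5 (-0.88 ± 0.14, 0.00751) and higher Apoe (1.49 ± 0.22, 0.00293) and Apoc1 (1.16 ± 0.24, 0.0439). These are 4 of 9 genes, where 0.341% of all genes were called, and control libraries did not overlap for 5 of 9 genes (13.1% of all genes). The Apoc1 call ended when any 1 of the 6 control libraries was left out and without the 3 controls named above (1.30, adjusted p = 0.0634), and the Fabp5 call ended without Vhl/Hif1a control 2 (adjusted p = 0.0502) or 3 (0.0611). Against the triple controls, Vhl/Hif1a controls were lower or higher in the same directions for these 4 genes: Fabp4 -1.65 ± 0.16 (adjusted p = 1.39e-05), Fabp5 -1.15 ± 0.14 (0.000222), Apoe 1.93 ± 0.22 (0.000117) and Apoc1 1.51 ± 0.24 (0.00226). Lpl was lower in the Vhl/Hif1a controls without passing (-0.70 ± 0.21, adjusted p = 0.0622), with no overlap between the groups. It passed in DESeq2, with no filter on low counts, without triple control 2 and without the 3 controls named above. Here 5.4% of all genes were called, and 6 of 9 genes did not overlap (25.3% of all genes). Both comparisons use the same Vhl/Hif1a controls. Between Vhl/Hif2a and triple controls 0 of 9 genes were called by edgeR and by DESeq2, with 1 at an unadjusted p under 0.05 (22.1% of all genes), 3.42% of all genes called and 0 of 9 without overlap (19.1% of all genes). Lpl passed there once the 3 controls named above were left out. Cross and any unlabelled batch cannot be told apart in these control differences.

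The fold of Apoe in the Vhl/Hif1a knockout thus started from a control level of 96.6 ± 12.0 CPM (SD, n = 3), and that in the Vhl/Hif2a knockout from 34.3 ± 2.7 CPM. Mean Apoe reached 231.5 ± 26.4 CPM in the first and 112.7 ± 21.6 CPM in the second. For Fabp4 the order was the opposite, with 88.3 ± 6.7 CPM in the Vhl/Hif1a knockout and 354.9 ± 3.9 CPM in the Vhl/Hif2a knockout. The 2 knockouts were not tested against each other directly, since their controls differ.

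Genes around the circuit were taken from lists by role; those given without a call were picked as known parts of the pathway after their values were seen. The counts that follow are to be read against the 3.64%, 14.7% and 0.0388% of all tested genes called in either direction in the Vhl/Hif1a, Vhl/Hif2a and triple knockouts. Among 13 receptors and cofactors of LXR and PPAR, 10 were tested and 0 were called in any of the 3 comparisons, with list medians of 0.08, -0.01 and -0.22. The paralogue Nr1h2 (LXR beta) gave log2 0.26, 0.25 and -0.37 (adjusted p = 0.566, 0.346 and 0.429), the partner Rxra -0.06, -0.03 and -0.21, and Pparg 0.17, 0.26 and 0.21 (0.631, 0.173 and 0.43). The ratio of Nr1h3 to Nr1h2 per kb was 0.871 to 0.910 in Vhl/Hif1a controls and 1.19 to 1.28 in knockouts. In the Vhl/Hif2a cross these ranges were 0.769 to 0.917 and 0.913 to 1.16, which overlapped.

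Of 17 other reported LXR targets, 12 were tested, and list medians were -0.07, 0.13 and -0.13. In the Vhl/Hif1a knockout 1 rose and 1 fell, in the Vhl/Hif2a knockout 3 of 12 rose and 0 fell (14.7% of all genes were called), and in the triple knockout 0 were called. Pltp, the phospholipid transfer protein, averaged 189, 187 and 263 CPM in the Vhl/Hif1a, Vhl/Hif2a and triple controls and 359, 375 and 236 CPM in the knockouts. It rose by log2 0.92 ± 0.14 SE (adjusted p = 0.000363) and 1.01 ± 0.14 (5.35e-05) and not in the triple knockout (-0.15, 0.543). Its effect was larger than the triple effect in both double knockouts (differences of 1.08 ± 0.19, adjusted p = 0.00464, and 1.16 ± 0.19, 0.000807), and these calls held in all 12 fits that left out 1 library. The desaturases Scd1 (0.67 ± 0.19, adjusted p = 0.0234) and Scd2 (0.46 ± 0.14, 0.0336) rose in the Vhl/Hif2a knockout, with the call kept in 3 of 6 and 1 of 6 fits without 1 library of that cross. The efferocytosis receptor Mertk fell in the Vhl/Hif1a knockout (-0.40 ± 0.08, adjusted p = 0.0081), a call that ended without Vhl/Hif1a control 2 or knockout 3. Srebf1, the lipogenic regulator, gave 0.22, 0.19 and -0.29 (adjusted p = 0.69, 0.56 and 0.44), and Mylip, which degrades the LDL receptor, -0.10, 0.17 and 0.24 (0.866, 0.536 and 0.442).

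Of 21 partners of lipoprotein lipase and genes of fatty acid uptake, 16 were tested, with list medians of 0.04, 0.20 and -0.06. In the Vhl/Hif1a knockout 2 rose and 1 fell, in the Vhl/Hif2a knockout 4 of 16 rose and 0 fell (14.7% of all genes), and in the triple knockout 0 were called. Acsl3, an acyl-CoA synthetase of lipid droplets, rose by 1.25 ± 0.22 in both double knockouts (adjusted p = 0.00191 and 0.000755), from 10.8 to 25.6 and from 8.91 to 21.1 CPM. The fatty acid transporter Slc27a1 rose by 0.64 ± 0.15 (0.0233; call kept in 2 of 6 fits without 1 library) and 0.77 ± 0.15 (0.00206). Lmf1, which matures lipases in the endoplasmic reticulum, rose in the Vhl/Hif2a knockout (0.75 ± 0.16, 0.00325), as did the triglyceride lipase Pnpla2 (0.66 ± 0.21, 0.0438; kept in 1 of 6). Dgat2, of triglyceride synthesis, fell in the Vhl/Hif1a knockout (-0.48 ± 0.11, 0.0237; kept in 2 of 6). Angptl4, an inhibitor of lipoprotein lipase, gave -0.05, 0.03 and 0.00 (adjusted p = 0.929, 0.914 and 0.99), and the fatty acid receptor Cd36 -0.04, 0.46 and 0.38 (0.967, 0.11 and 0.429).

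Of 11 other fatty acid binding and related proteins, 2 were tested. Fabp1, the liver form, averaged 174, 225 and 223 CPM in the 3 control groups and 197, 405 and 262 CPM in the Vhl/Hif1a, Vhl/Hif2a and triple knockouts. It rose in the Vhl/Hif2a knockout (0.85 ± 0.12 SE, adjusted p = 7.1e-05), and that effect was larger than the Vhl/Hif1a effect (Vhl/Hif1a minus Vhl/Hif2a difference -0.66 ± 0.16, adjusted p = 0.041; kept in 3 of 12 fits without 1 library). Of 16 other apolipoproteins and their receptors, 6 were tested, and in the Vhl/Hif2a knockout 1 rose and 1 fell, with none called in the other two. The riser was the VLDL receptor gene Vldlr, with 258 counts over 3 knockout libraries and 6 over 3 controls (log2 4.84 ± 0.65, adjusted p = 0.000462). It averaged under 1 CPM over all libraries and is named after its values were seen. The reelin and apolipoprotein E receptor Lrp8 fell (-0.40 ± 0.11, 0.0214; kept in 2 of 6 fits without 1 library).

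Of 17 genes of oxysterol synthesis and sterol efflux, 16 were tested. In the Vhl/Hif1a and triple knockouts 0 were called, and in the Vhl/Hif2a knockout 0 rose and 2 of 16 fell, near the 14.7% of all genes called. Sult2b1, which sulphates sterols, fell from 5.52 to 2.45 CPM (-1.17 ± 0.20, adjusted p = 0.000647), and the lysosomal cholesterol carrier Npc1 fell by less (-0.26 ± 0.08, 0.0363; kept in 1 of 6, and 0.0726 without the 3 controls named above). Ch25h, which makes 25-hydroxycholesterol, gave -0.34, 0.47 and 0.04 (adjusted p = 0.709, 0.308 and 0.957).

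**Figure D4:**
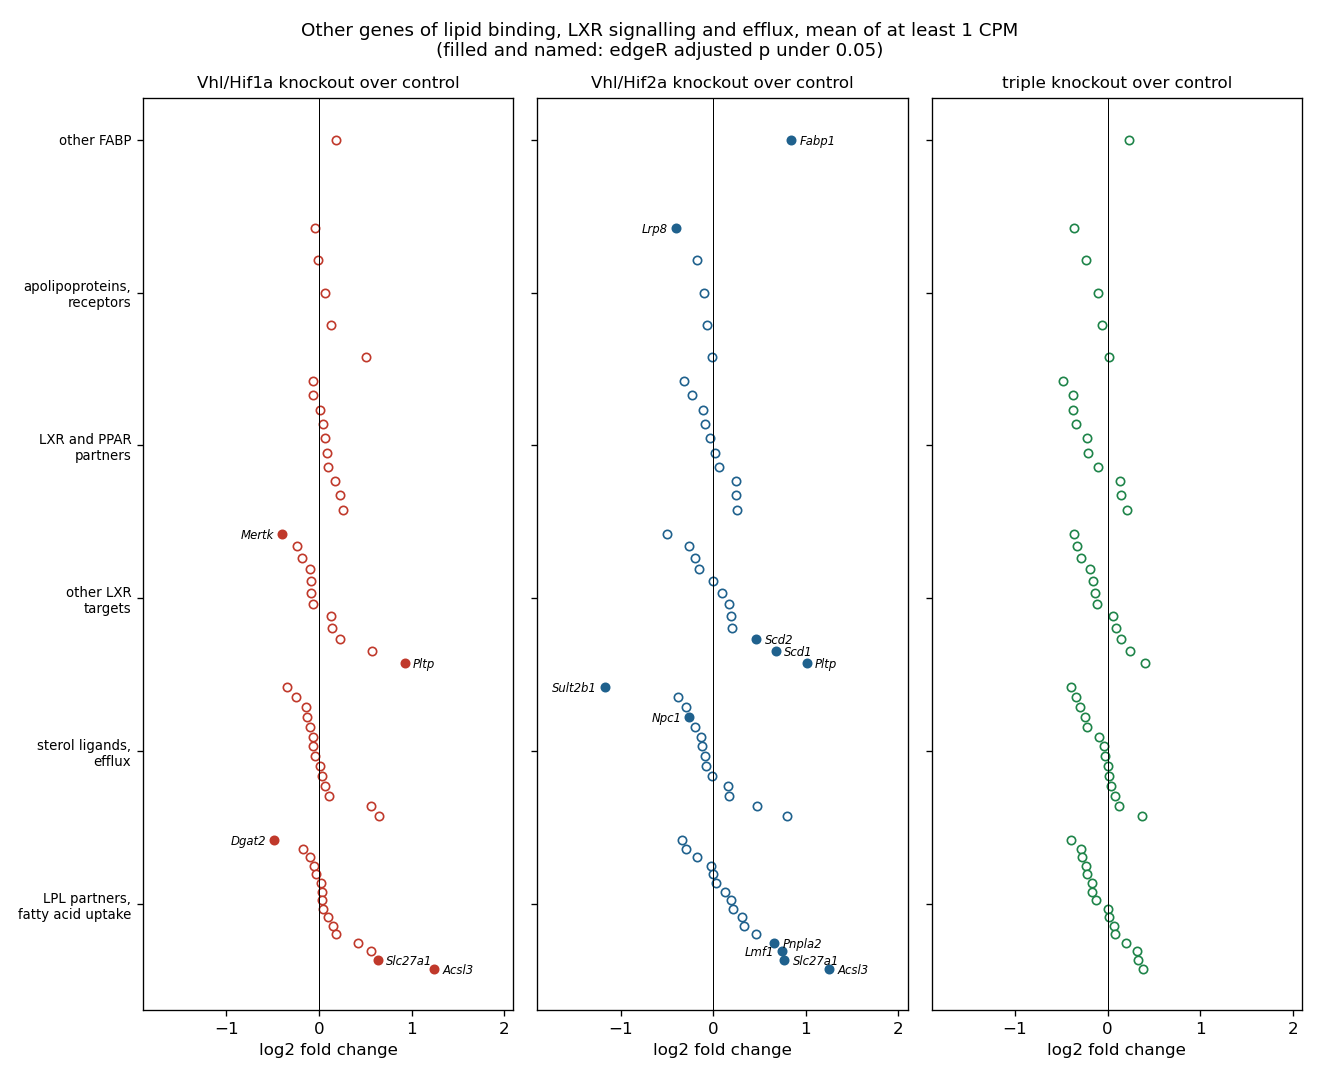
Log2 fold change of each tested gene with a mean of at least 1 CPM on the 6 lists, in the 3 knockouts over their controls; filled, named points have an edgeR adjusted p under 0.05. Acsl3, Pltp and Slc27a1 are filled in both double knockouts, and no point is filled in the triple panel.

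Markers of other cells were read beside these results. The 13 monocyte and interstitial macrophage markers, cells that also express Apoe, summed to 23.4 to 28.2 CPM in Vhl/Hif1a knockouts against 25.5 to 30.2 in controls, and to 33.5 to 37.1 CPM in Vhl/Hif2a knockouts against 18.5 to 32.5 in controls. In the triple cross they summed to 23.3 to 27.9 CPM against 24.5 to 29.3. Of the 13, 9 were tested, and 0 were called in the Vhl/Hif1a and triple knockouts. In the Vhl/Hif2a knockout the monocyte chemokine receptor Ccr2 was higher (log2 0.84, adjusted p = 0.0164) and the complement gene C1qb lower (-1.71, 0.0222). The list medians were -0.27, -0.44 and -0.33, so most tested members ran below 0 there while the sum, to which Ccr2 gave the most, was higher. None of the 13 was at 0 in every library of a group except Folr2 in the Vhl/Hif2a controls. The part of these markers in the rise of Apoe was not tested in either double cross.

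The CD11c promoter is active in dendritic cells, whose 10 markers were all tested. They summed to 102.6 to 113.7 CPM in Vhl/Hif1a knockouts against 108.8 to 126.5 in controls, to 118.1 to 148.7 against 126.4 to 171.9 in the Vhl/Hif2a cross and to 127.6 to 133.3 against 120.3 to 160.4 in the triple cross, with Cd24a the bulk of each sum. In the Vhl/Hif2a knockout 4 of the 10 were lower and 0 higher (list median -0.99), namely Flt3, Zbtb46, Ccr7 and Fscn1, and in the other two knockouts 0 were called (medians -0.43 and 0.03). Against the triple effect the Vhl/Hif2a effect was lower for 2 of the 10 and higher for 0 (median -1.04). Of all genes, 7.99% were called there in either direction and 4.91% higher. The part of these markers in the Vhl/Hif2a results was not tested.

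The 11 adipocyte and fibroblast markers, which include cells rich in Fabp4 and Lpl, summed to 9.16 to 11.7 CPM in Vhl/Hif1a knockouts against 2.15 to 22.8 in controls and to 8.87 to 10.7 CPM in Vhl/Hif2a knockouts against 2.24 to 4.55 in controls. In the triple cross these sums overlapped, at 4.60 to 7.28 CPM in knockouts against 4.08 to 9.57 in controls. Adipoq and Cfd, which define adipocytes, were at 0 in all 6 groups. The lipid droplet gene Plin4 made up most of the knockout sums, averaging 7.17 CPM in the Vhl/Hif1a and 7.76 CPM in the Vhl/Hif2a knockouts. Of the 11, 2 were tested, and 1 was called higher and 0 lower in each double knockout. In the triple knockout 0 were called (list medians 2.56, 1.33 and 0.04). The effect was larger than the triple effect for 1 of the 2 in each double knockout. Of all genes, 1.5% (Vhl/Hif1a) and 4.91% (Vhl/Hif2a) were called larger there. Of 10 endothelial markers, 9 averaged under 1 CPM in every group, and 1 made up the bulk of each sum. They summed to 122.5 to 155.5 CPM in Vhl/Hif1a knockouts against 131.7 to 144.9 in controls. The sums were 122.8 to 146.1 against 119.7 to 143.7 in the Vhl/Hif2a cross. In the triple cross they were 138.3 to 161.8 against 133.2 to 240.7. Of the 10, 2 were tested, and 0 were called in any of the 3 knockouts. The 9 neutrophil markers, with Ly6g at 0 in every group, summed to 77.4 to 88.5 CPM in Vhl/Hif1a knockouts against 155.9 to 165.8 in controls. In the Vhl/Hif2a cross the sums overlapped (127.4 to 158.1 against 123.5 to 204.3). In the triple cross knockouts were higher (150.8 to 174.5 against 136.5 to 146.6). Of 7 tested, 1 was called higher and 3 lower in the Vhl/Hif1a knockout, 1 higher and 2 lower in the Vhl/Hif2a knockout and 0 in the triple knockout. The shares of all genes called in either direction were 3.64%, 14.7% and 0.0388%. Of the 14 lung epithelium markers, Epcam, Cdh1 and Abca3 were the bulk, and Sftpc averaged under 1 CPM. Their sum was 305.0 to 338.7 CPM in Vhl/Hif1a controls, 526.5 to 693.8 in Vhl/Hif2a controls and 447.4 to 509.0 in triple controls. It was thus lowest in the control group where Fabp4 and Fabp5 were also lowest and Apoe and Apoc1 highest. Of 8 tested, 1 was lower and 0 higher in Vhl/Hif1a than in Vhl/Hif2a controls (list median -0.14), where 0.341% of all genes were called. Knockouts summed to 282.6 to 344.5 CPM in the Vhl/Hif1a cross, 642.4 to 675 in the Vhl/Hif2a cross and 391.7 to 419.8 in the triple cross. Of the 8, 1 was called higher and 1 lower in the Vhl/Hif1a knockout. In the Vhl/Hif2a knockout 2 were higher and 0 lower, and in the triple knockout 0 were called (medians 0.04, -0.01 and -0.15). The Vhl/Hif1a effect was larger than the triple effect for 1 of the 8, and the Vhl/Hif2a effect for 2. The part of the adipocyte and fibroblast, endothelial, neutrophil or epithelium markers in the results for the 9 genes was not tested.

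Likeness to each gene was measured by Pearson's r of log2(CPM + 1) over the 18 libraries, among 8130 genes, as a description in which libraries share groups and crosses. Fabp4 was most like Fabp1 (r = 0.906), Nr1h3 most like Emilin2 (0.951), and both Apoe and Apoc1 most like Rgl1 (0.956 and 0.950). Fabp5 was most like Atf3 (0.907) and Abca1 most like Ralgapa2 (0.859). Abcg1 was most like Sdc3 (0.861) and Lpl most like Cd180 (0.945). Between libraries of the same group these pairs were less alike in most cases: r of the deviations from group means was 0.23 for Fabp4 with Fabp1, 0.17 for Apoe and 0.48 for Apoc1 with Rgl1, 0.55 for Nr1h3 with Emilin2 and 0.56 for Fabp5 with Atf3. It was 0.79 for Abca1 with Ralgapa2, 0.81 for Abcg1 with Sdc3 and 0.95 for Lpl with Cd180. Among the 9 genes, Apoe and Apoc1 were the closest pair (0.952), followed by Nr1h3 with Apoc1 (0.858) and with Apoe (0.852). Fabp4 and Fabp5 stood at 0.758, and Apoe and Lpl at -0.735.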

How the data were processed

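RNA-seq of 18 polyA libraries (NEBNext Ultra II Directional kit, per the labels' protocols) was processed by the authors with FastQC, cutadapt and STAR on GRCm38, per the submitters' processing notes; no version is listed, and how reads were assigned to genes (program, gene models, strand) is not given in the sources used here. The deposited table holds expected counts per gene (89.251% of values whole). Here they were rounded and tested with edgeR 4.0.16 (R 4.3.3): filterByExpr on the 6 groups, TMM factors, glmQLFit with 1 coefficient per group over 18 libraries, glmQLFTest, and Benjamini-Hochberg adjustment over 12900 genes, called at an adjusted p under 0.05. Tested genes held 99.967% of counts. SE is the log2 fold change divided by the root of F. The script was tested on simulated data. With 3 libraries against 3, an exact permutation test of 1 gene cannot go below p = 0.1, so model-based p-values are given. Positions and exon lengths are from GENCODE release M21; promoters are from RefSeq. All 9 genes are described, and 3 most alike genes (mean of at least 10 CPM) were sought for each. List genes are named when called in a knockout comparison with a mean of at least 1 CPM or as known parts of the pathway. Mgll is named for a difference between effects. The genes and lists were chosen with earlier results of these data known. Alternatives were DESeq2 1.42.0, its size factors and upper quartile factors in edgeR, no filter on low counts, the 6 libraries of a cross alone, a replicate block, leaving out each library and, chosen after seeing the data, leaving out 3 controls together. No pair of replicates was a duplicate.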

Additional observations from a re-analysis of the deposited data

Results flagged for a closer look

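Effects of 2 knockouts differed, by the edgeR test of the difference, for 3 of the 9 genes. They also differed for 6 genes around them that were called in a knockout comparison. These are listed as log2 differences with adjusted p, and Mgll, called in no knockout comparison, is added below. For the Vhl/Hif1a minus the triple effect these were 0.91 for Fabp4 (0.0378), 0.78 for Nr1h3 (0.00695), 1.29 for Apoe (0.0352), 1.08 for Pltp (0.00464), 0.91 for Slc27a1 (0.0353) and -0.46 for Mertk (0.0495). The calls for Fabp4, Apoe and Slc27a1 held in 4, 5 and 5 of 12 fits that left out 1 library, and that for Mertk in 1. Without the 3 controls named in the report, the adjusted p was 0.122 for Apoe, 0.08 for Slc27a1 and 0.0554 for Mertk.

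For the Vhl/Hif2a minus the triple effect the differences were 1.24 for Fabp4 (0.00132), 0.60 for Nr1h3 (0.0143), 1.75 for Apoe (0.00149), 1.16 for Pltp (0.000807), 1.04 for Slc27a1 (0.00567), 1.03 for Lmf1 (0.0076), 0.61 for Fabp1 (0.0286) and -1.14 for Sult2b1 (0.0146). All of these held in 12 of 12 such fits except Fabp1, which held in 7. Without the 3 controls, Nr1h3 had an adjusted p of 0.0593. Mgll, on the same list as Lmf1, was called in no knockout comparison. Its Vhl/Hif2a effect was also larger than the triple effect (0.72, edgeR adjusted p = 0.00738). Both sets use the same triple cross libraries, so they are not independent of each other.

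For the Vhl/Hif1a minus the Vhl/Hif2a effect the differences were 1.73 for Sult2b1 (0.00137), held in 12 of 12 fits, and -0.66 for Fabp1 (0.041), held in 3 of 12. Sult2b1 averaged 5.76 CPM in Vhl/Hif1a controls and 8.53 CPM in their knockouts (log2 0.57, adjusted p = 0.138), and it fell in the Vhl/Hif2a knockouts.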

How the results depend on the processing

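Fabp4, Nr1h3, Apoe and Apoc1 kept their calls in both double knockouts under DESeq2, other size factors, no filter on low counts, the 6 libraries of a cross alone, the replicate block, every left-out library and the 3 controls left out together, and none of the 9 genes was called in the triple knockout under any of these. The cause of the changes that follow was not tested. Same-numbered knockouts and controls correlated between -0.291 and 0.234 in their deviations, and 3 of 9 knockouts were closest to the control of their own number. Deviations from means of 3 libraries cannot show whether equal numbers share an animal or day, and the labels do not say. With the replicate block, 0 of 9 genes differed between the Vhl/Hif1a and triple effects (Fabp4 adjusted p = 0.0791, Apoe 0.125, Nr1h3 0.0537), and the Nr1h3 difference between the Vhl/Hif2a and triple effects ended (0.0554).

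Leaving out 1 library gave 1 to 3 called genes for the Vhl/Hif1a against the triple effect and 2 to 3 (4 with all libraries) for Vhl/Hif1a against Vhl/Hif2a controls. Leaving out the 3 controls gave 1 for the Vhl/Hif1a against the Vhl/Hif2a effect (Fabp4) and 1 for Vhl/Hif2a against triple controls (Lpl). It gave 5 in place of 4 for the Vhl/Hif2a knockout (with Fabp5) and for Vhl/Hif1a against triple controls (with Lpl), 2 in place of 3 for the Vhl/Hif1a (without Apoe) and the Vhl/Hif2a effect (without Nr1h3) against the triple effect, and 3 in place of 4 for Vhl/Hif1a against Vhl/Hif2a controls (without Apoc1).

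Changes of sign were all in values that did not pass. Without the 3 controls, log2 values became 0.15 for Lpl in the Vhl/Hif2a knockout, 0.082 (Fabp5), 0.015 (Nr1h3), 0.27 (Apoe) and 0.072 (Abcg1) in the triple knockout, -0.31 for Lpl between the 2 double knockout effects, and 0.013 (Abca1) and 0.12 (Lpl) between the Vhl/Hif2a and triple effects. Abcg1 in the triple knockout was 0.0034 with upper quartile factors and 0.0012 in the cross alone. Leaving out 1 library gave ranges of -0.11 to 0.081 (Abca1) and -0.15 to 0.0031 (Lpl) in the Vhl/Hif1a knockout and -0.41 to 0.15 (Lpl) in the Vhl/Hif2a knockout. In the triple knockout the ranges were -0.16 to 0.082 (Fabp5), -0.093 to 0.0155 (Nr1h3), -0.31 to 0.27 (Apoe) and -0.052 to 0.073 (Abcg1). Between effects they were -0.23 to 0.33 (Lpl, Vhl/Hif1a against Vhl/Hif2a), -0.20 to 0.050 (Fabp5) and -0.80 to 0.53 (Apoc2, both Vhl/Hif1a against triple), and -0.15 to 0.021 (Abca1) and -0.0078 to 0.12 (Abcg1, both Vhl/Hif2a against triple).

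Counts over all genes moved more. DESeq2 called 11 genes against edgeR's 5 in the triple knockout, 483 against 315 and 466 against 263 for the Vhl/Hif1a effect against the Vhl/Hif2a and triple effects, and 86 against 44, 1298 against 697 and 970 against 441 for the 3 control comparisons. The Vhl/Hif1a knockout count of 469 was 275 to 299 without control 2 or knockouts 2 or 3 and 758 without the 3 controls. Leaving out 1 library took the Vhl/Hif1a against triple control count from 697 to between 211 (without Vhl/Hif1a control 2) and 1187 (without triple control 3), Vhl/Hif2a against triple controls from 441 to between 141 (without Vhl/Hif2a control 2) and 858 (without triple control 3), and Vhl/Hif1a against Vhl/Hif2a controls from 44 to between 18 (without Vhl/Hif1a control 2) and 32. The Vhl/Hif1a against triple effect count of 263 became 161 (without Vhl/Hif1a control 2 or knockout 3) to 401 (without triple control 3). The Vhl/Hif2a knockout count of 1895 fell to 1249 without knockout 1, and the 1031 of the Vhl/Hif2a against the triple effect to 675 without triple knockout 1. With the replicate block the Vhl/Hif1a effect differed for 194 genes from the Vhl/Hif2a effect and for 150 from the triple effect. Depth limits Apoc2 alone among the 9 genes, at 0 to 28 counts a library.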
